A study of Mus musculus with 40 samples.

Results

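The 8 genes described here, Birc2, Birc3, Xiap, Cflar, Casp8, Ripk1, Ripk3 and Mlkl, control whether a cell that receives a death receptor or Toll-like receptor signal survives, undergoes apoptosis or undergoes necroptosis. They were chosen by name, and all 8 were found among the 27179 genes of the deposited expression table. Their RNA was measured in bone marrow-derived macrophages (BMDMs), which are macrophages grown in culture from bone marrow with L-cell conditioned medium as the source of the growth factor M-CSF. The cells came from 4 WT and 4 Cpeb4-/- adult male mice of a mixed C57BL/6J and 129 strain background. They were left untreated (0 hr) or received 10 ng/ml LPS, an outer membrane component of Gram-negative bacteria, here from E. coli 0111:B4, for 1, 3, 6 or 9 hr, which gave 40 libraries in 10 groups of 4. Cpeb4-/- animals carry the knockout in the whole body, so the macrophages also developed without CPEB4, a protein that binds cytoplasmic polyadenylation elements (CPEs) in the 3′-UTR of mRNAs. Each mouse gave cells to all 5 times, and each of the 2 batches held 2 mice of each genotype. None of the 6 cages held both genotypes, so that cage and genotype cannot be told apart for any cage. The deposited values are rlog values, that is log2-scaled counts per gene corrected for library size, and a difference of 1 is a 2-fold change.

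Binding of TNF to its receptor recruits RIPK1 and the ubiquitin ligases cIAP1 and cIAP2, encoded by Birc2 and Birc3, which attach ubiquitin chains to RIPK1 and sustain NF-κB signaling. When this ubiquitination fails, RIPK1 can join a complex with FADD and caspase-8, in which cFLIP, encoded by Cflar, limits the conversion of caspase-8 to its fully active form, while XIAP blocks the caspases that act downstream. When caspase-8 is inactive, RIPK1 or other inputs can activate RIPK3, which phosphorylates MLKL, and MLKL then permeabilizes the plasma membrane. In macrophages TLR4, the LPS receptor, feeds into the same machinery, and several of these genes are known NF-κB or interferon targets.

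The 8 genes lie at 6 separate places in the mouse genome (mm10, positions from GENCODE M21). Birc2 (chr9:7818227-7837064) and Birc3 (chr9:7848699-7873186) are paralogs on the minus strand, 11634 bases apart. Cflar (chr1:58711508-58758884) and Casp8 (chr1:58795374-58847503), which share the tandem death effector domain fold, lie on the plus strand, 36489 bases apart. No other protein-coding gene lies between the members of either pair. Xiap (chrX:42059679-42109656) and Ripk1 (chr13:34002363-34037147) are on the plus strand, and Ripk3 (chr14:55784995-55788865) and Mlkl (chr8:111311797-111338177) on the minus strand. The library kit does not mark strand. Reads from 241 exonic bases that Ripk1 shares with Serpinb6a on the opposite strand, and from 511 that it shares with the pseudogene Gm17084, therefore cannot be assigned from the values alone. No other of the 8 genes had exonic bases that another annotated gene also covers, although reads common to the Birc2 and Birc3 paralogs could be split by the counting.

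Because CPEB4 and the AU-rich element (ARE) machinery both act through 3′-UTRs, the longest annotated 3′-UTR of each gene was searched for the ARE pentamer ATTTA and for the CPE. The 7 spellings of the CPE were the consensus TTTTAT with its longer forms TTTTAAT or, with another A, TTTTAAAT, and the variants that end differently, namely TTTTACT as well as TTTTCAT, then also TTTTAAGT and the short form TTTTGT. Matches were counted on the sense strand, overlapping ones included. Over 11970 expressed genes with a 3′-UTR, the median length was 1148.5 bases. The median was 2 ATTTA and 3 CPEs, and 69.3% had at least 1 ATTTA. Xiap had 16 ATTTA and 24 CPEs in 4672 bases, and Cflar had 13 and 17 in 4962 bases, the highest counts among the 8. Birc3 had 7 and 3 in 1525 bases, and Ripk1 had 7 and 6 in 4365 bases. Casp8 had 3 and 2 in 749 bases, Birc2 had 1 and 0 in 523 bases, Mlkl had 0 and 1 in 228 bases, and Ripk3, with 202 bases, had neither. Counts rise with length. Per kb, Xiap had 3.42 ATTTA and 5.14 CPEs, and Cflar had 2.62 and 3.43. By this density 75.7% of the expressed genes were below Cflar for ATTTA and 64.7% for CPEs. Birc3 (4.59) and Casp8 (4.01) had more ATTTA per kb than Xiap, and Mlkl (4.39) had more CPEs per kb than Cflar. The 3 genes whose pentamers overlap in a run are shown with the run in capitals, since the courses of Birc3 and Cflar after LPS were alike and that of Ripk1 was not, as described below.
Birc3: ggagaaATTTATTTATTTATTTAaaagat
Cflar: caaatagaATTTATTTATTTAttaaatac
Ripk1: atctatctATTTATTTATTTAttttgtgt
The run of Birc3 spans 17 bases from base 192 of its 3′-UTR, and those of Cflar and Ripk1 span 13 bases from bases 1323 and 3091. A match is a description of the letters and not a site shown to be bound.

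Windows from 250 bases before to 50 bases after annotated transcript starts (RefSeq, GRCm38.p6) were searched on both strands for a κB motif, for the interferon-stimulated response element core TTTCNNTTTC and for the STAT motif TTCNNNGAA. These were found in 8.46%, 3.44% and 8.30% of 32851 such windows. The κB letters were found in 1 of the 3 windows of Xiap and in no window of the other 7 genes. The interferon core lay 6 to 15 bases after the start of Cflar and across the start of the second of 2 Ripk1 windows, which also held 2 STAT matches. The 2 interferon core matches, in capitals, are shown because the genes that carry them differ widely in their response to LPS.
Cflar: acgtctgcTTTCGGTTTCtgggcgtc
Ripk1: cgttcccgGAAATCGAAAagcgcgga
The first is chr1:58711489-58711514 and the second chr13:34002861-34002886, both printed on the plus strand, and the Ripk1 letters are the reverse complement of the motif. Windows of Birc2, Birc3, Casp8, Ripk3 and Mlkl held none of the 3 motifs.

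Replicate libraries correlated with r between 0.998 and 0.999 over all genes, and no pair held identical values. All 8 macrophage markers checked, Csf1r and Adgre1 included, were above the expression filter. The T cell markers Cd3e and Cd3g had a mean rlog of 0.20 and −0.12, whereas the third T cell gene, Lck, was above the filter with a mean of 6.45 (4.69 to 8.51). Also above it were the neutrophil markers S100a8 (mean 6.34) and S100a9 (5.11) and the dendritic cell markers Xcr1 (6.04) and Zbtb46 (2.92). The stromal marker Pdgfrb (7.37) and the mast cell marker Kit (3.21) were as well, and no B cell or erythroid marker was. Cpeb4 itself, the targeted gene, was lower in all 4 Cpeb4-/- libraries than in all 4 WT libraries only at 6 hr, with 10.09 to 10.67 in WT and 8.74 to 9.66 in Cpeb4-/- (difference −1.27, limma adjusted p = 0.00114), and the groups overlapped at 0, 1, 3 and 9 hr. The sources used here do not say which part of the gene the allele lacks, so the value summed over the gene may not check the labels, and Cpeb4-/- is used below as the label of the libraries. Some libraries had a large influence on the number of genes called between genotypes over the whole table. It went from 251 to 2440 at 1 hr without the library of WT mouse 69, from 481 to 2584 at 3 hr without that of WT mouse 88, and from 1029 to 4575 at 9 hr without that of Cpeb4-/- mouse 2.

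After 6 hr of LPS, 7 of the 8 genes were higher in WT macrophages, although for Ripk1 the direction flipped with the scaling of the libraries, and Ripk3 was lower. Cflar and Birc3 had risen by most of their range at 1 hr, Birc2 peaked at 3 hr, and Casp8 and Mlkl showed no call at 1 hr and peaked at 6 hr. In bulk samples such as these, fewer cells that express a gene and less RNA per cell cannot be told apart. Against 0 hr, 3 of the 8 genes passed an adjusted p of 0.05 in limma at 1 hr, all higher, where 33.9% of 13100 genes tested passed and 17.3% were higher. At 3 hr 7 passed, all higher, where 67.8% of all genes passed and 32.5% were higher. At 6 hr 7 were higher and 1, Ripk3, lower, where 77.9% passed, 38.7% as higher and 39.2% as lower. At 9 hr 7 passed, all higher, where 71.5% passed and 35.9% were higher. Ripk1 is among the 7 at 3, 6 and 9 hr as deposited only, since quantile normalization turned it around. Between successive times in WT, 8, 7 and 7 of the 8 genes passed from 1 to 3, 3 to 6 and 6 to 9 hr, where 60.1%, 63.7% and 51.4% of all genes did. Most expressed genes thus passed in these comparisons, and a call alone says little about the 8 genes. The median change of the 8 genes was 0.12, 0.95, 1.13 and 0.57 at 1, 3, 6 and 9 hr, against 0.02, −0.02, −0.02 and −0.0044 for all genes tested. These medians are as deposited. All genes are not a matched background, since most of the 8 are highly expressed and such genes shift differently with the scaling, as given below.

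**Figure D1:**
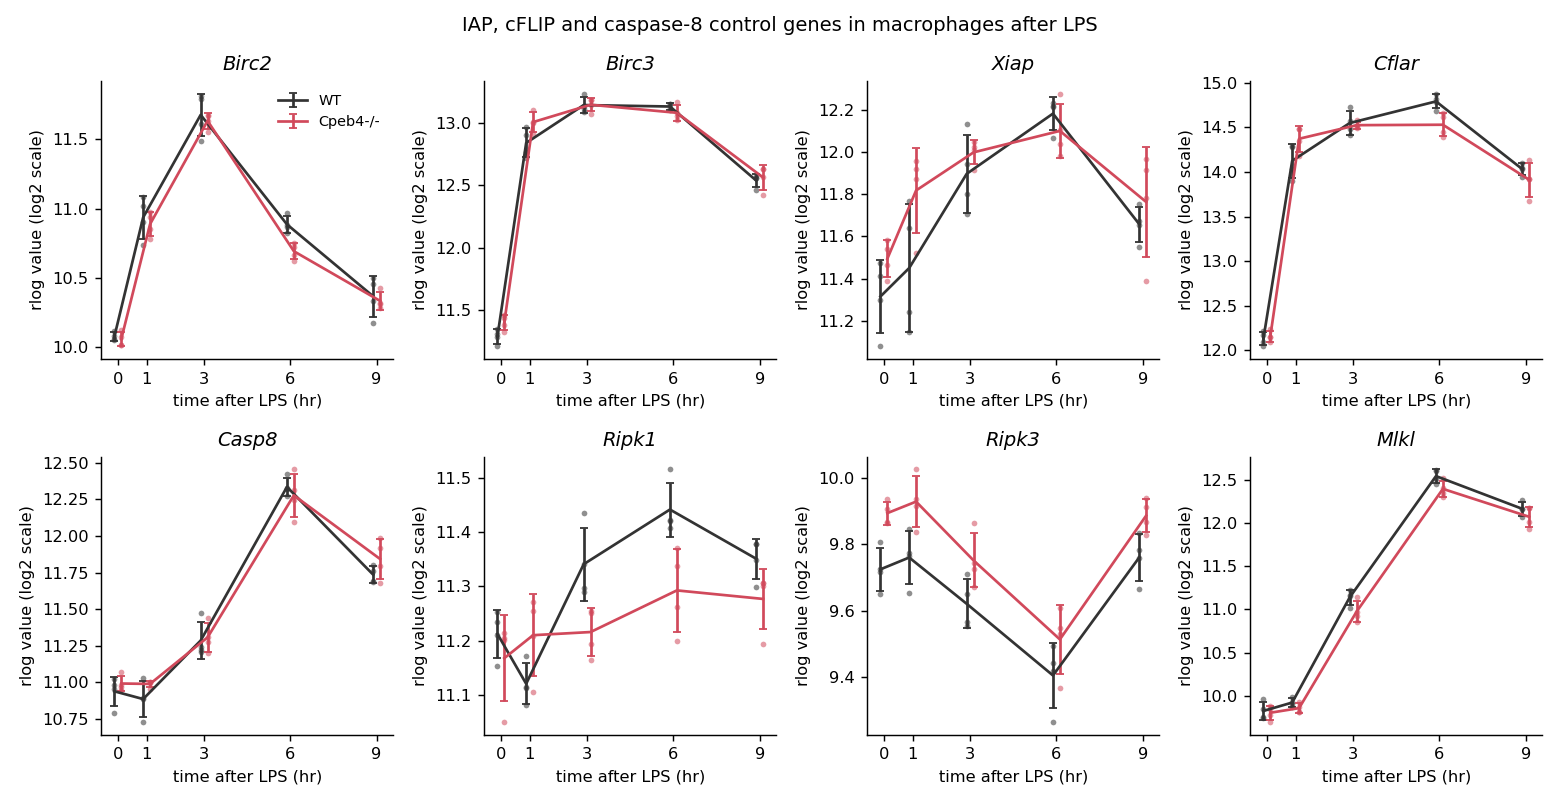
Rlog values (log2 scale, y axes differ between panels and do not start at 0) of the 8 genes against time after LPS in hr. Points are libraries, lines join the means of 4 mice and bars are the SD, with WT in black and Cpeb4-/- in red. Cflar and Birc3 are near their highest level from 1 hr, Birc2 is highest at 3 hr and Casp8 and Mlkl at 6 hr, whereas the Ripk1 and Ripk3 axes span less than 1 unit.

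The values depend on how libraries of different times are put on one scale. Quantile normalization, which forces the same distribution of values on all 40 libraries, moved the median change from 0 hr of all expressed genes by 0.10 at 6 hr and 0.10 at 9 hr in WT. For 4595 genes whose rlog averaged 10 or more, the shift was −0.37 and −0.23 at the same times. Most of the 8 genes are in that range of expression, and each change from 0 hr below is read against these shifts.

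Among the inhibitors of apoptosis, Birc3 rose early. In WT macrophages its rlog was 11.29 ± 0.06 (SD, n = 4) before LPS, then 12.84 ± 0.12, 13.15 ± 0.06, 13.13 ± 0.02 and 12.54 ± 0.05 after 1, 3, 6 and 9 hr. The change from 0 hr was 1.56 at 1 hr (SE 0.05, limma adjusted p = 1.67e-15), a 2.94-fold rise, and 1.86 at 3 hr, a 3.63-fold rise. After quantile normalization these changes were 1.49 and 1.48. From 3 to 6 hr Birc3 was level as deposited (−0.01, limma adjusted p = 0.856), but lower after quantile normalization (−0.23, adjusted p = 0.000952), and from 6 to 9 hr it fell by 0.59. The step from 1 to 3 hr, 0.30 as deposited (limma adjusted p = 3.65e-05), was −0.00047 after quantile normalization, whereas the rise at 1 hr and the fall from 6 to 9 hr kept their direction and their call.

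Its paralog and neighbour Birc2 rose and fell back. Its rlog in WT was 10.08 ± 0.03 before LPS, then 10.94 ± 0.15, 11.68 ± 0.15, 10.89 ± 0.06 and 10.37 ± 0.15 after 1, 3, 6 and 9 hr. WT mice 25, 69, 87 and 88 had 10.08, 10.12, 10.06 and 10.05 before LPS and 11.79, 11.61, 11.81 and 11.49 after 3 hr. The peak at 3 hr was 3.03-fold over 0 hr (log2 1.60, SE 0.08, limma adjusted p = 3.35e-13) and was the highest value in all 4 WT and all 4 Cpeb4-/- mice. After quantile normalization the change from 0 hr in WT was 1.43 at 3 hr and 0.59 at 6 hr. At 9 hr it was 0.19 (limma adjusted p = 0.0455). From 3 to 6 hr Birc2 fell by 0.79 (limma adjusted p = 3.9e-08) while the value of Birc3 for this step depended on the scaling, and the contrast between the paralogs was not itself tested.

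Xiap, the member of the family that binds caspases most directly, changed less. Its rlog in WT was 11.31 ± 0.17 before LPS, then 11.45 ± 0.30, 11.90 ± 0.18, 12.18 ± 0.08 and 11.66 ± 0.08 after 1, 3, 6 and 9 hr. The rise at 6 hr was 0.87 (SE 0.12, limma adjusted p = 9.99e-07), a 1.82-fold change seen in 4 of 4 mice, and at 1 hr no change was detectable (0.14, adjusted p = 0.416). After quantile normalization the rise in WT was 0.37 at 6 hr and still passed (limma adjusted p = 0.00878), whereas at 3 hr (0.25) and 9 hr (0.06) it did not, nor did the rise at 6 hr in Cpeb4-/- (0.13, adjusted p = 0.233). Xiap also had the widest spread between mice of the 8 genes at 1 hr, from 11.15 in WT mouse 87 to 11.77 in WT mouse 69.

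Cflar had the highest rlog of the 8 genes after LPS. In WT it was 12.13 ± 0.08 before LPS, then 14.12 ± 0.19, 14.55 ± 0.13, 14.79 ± 0.08 and 14.03 ± 0.06 after 1, 3, 6 and 9 hr. Before LPS the mice 25, 69, 87 and 88 had 12.22, 12.10, 12.04 and 12.17, and 1 hr later 14.29, 14.27, 13.90 and 14.04, far above the spread between them. The rise was 3.98-fold at 1 hr (log2 1.99, SE 0.08, limma adjusted p = 3.22e-14) and 6.32-fold at 6 hr (log2 2.66, SE 0.08, adjusted p = 3.4e-17). The 6 hr value was the highest of each of the 4 WT mice, although after quantile normalization the step from 3 to 6 hr, 0.24 as deposited, was −0.06, and the change from 0 hr at 6 hr was 1.87.

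Casp8, encoding the caspase that Cflar restrains, followed later. Its rlog in WT was 10.94 ± 0.10 before LPS, then 10.88 ± 0.12, 11.29 ± 0.13, 12.34 ± 0.06 and 11.73 ± 0.06 after 1, 3, 6 and 9 hr. WT mice 25, 69, 87 and 88 had 10.96, 11.02, 10.79 and 10.98 before LPS and 12.27, 12.32, 12.33 and 12.42 after 6 hr. At 1 hr the change was −0.05 (limma adjusted p = 0.595), with a 95% interval from −0.19 to 0.09, while that of its chromosomal neighbour Cflar was 1.99. At 6 hr Casp8 was 2.63-fold over 0 hr (log2 1.40, SE 0.07, limma adjusted p = 9.02e-14), and most of this rise took place between 3 and 6 hr (1.05). After quantile normalization the 6 hr rise was 0.94, that at 3 hr (0.10) no longer passed, and at 1 hr Casp8 was lower (−0.18, limma adjusted p = 0.0277).

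The kinases of the pathway moved little, whereas Mlkl, the executioner of necroptosis, had the largest change of the 8 genes. Mlkl had an rlog in WT of 9.82 ± 0.10 before LPS, then 9.92 ± 0.05, 11.14 ± 0.09, 12.54 ± 0.08 and 12.16 ± 0.08 after 1, 3, 6 and 9 hr. This is a 6.58-fold rise at 6 hr (log2 2.72, SE 0.06, limma adjusted p = 1.92e-19), with no call at 1 hr (0.10, adjusted p = 0.22). The 4 untreated WT libraries had 9.74, 9.75, 9.84 and 9.96 in mice 25, 69, 87 and 88, and at 6 hr these mice had 12.45, 12.60, 12.51 and 12.61, with no overlap between the times. The rise was in 4 of 4 WT and 4 of 4 Cpeb4-/- mice, and was 2.37 at 6 hr in WT after quantile normalization.

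Ripk3, which phosphorylates MLKL, moved the other way at 6 hr. Its rlog in WT was 9.72 ± 0.06 before LPS, then 9.76 ± 0.08, 9.62 ± 0.07, 9.41 ± 0.10 and 9.76 ± 0.07 after 1, 3, 6 and 9 hr. In mice 25, 69, 87 and 88 it went from 9.72, 9.81, 9.73 and 9.65 untreated to 9.49, 9.44, 9.42 and 9.27 after 6 hr. The fall was −0.32 (SE 0.06, limma adjusted p = 5.07e-05), to 0.80 of the level at 0 hr and in 4 of 4 mice, and the level at 9 hr was back within the spread of that at 0 hr (0.04, adjusted p = 0.598). In Cpeb4-/- macrophages the difference between 6 and 0 hr was −0.38 (limma adjusted p = 1.58e-06), and after quantile normalization it was −0.34 in WT and −0.42 in Cpeb4-/-.

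Ripk1, the kinase at the branch point, had an rlog between 11.08 and 11.52 in all 20 WT libraries. Its change from 0 hr in WT passed at 3 hr (0.13, limma adjusted p = 0.0105), 6 hr (0.23, adjusted p = 4.81e-05) and 9 hr (0.14, adjusted p = 0.00606) as a rise, but each of these turned to a fall that also passed after quantile normalization (−0.15, −0.16 and −0.11). The direction of the Ripk1 response to LPS therefore depended on the scaling and is not given here.

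**Figure D2:**
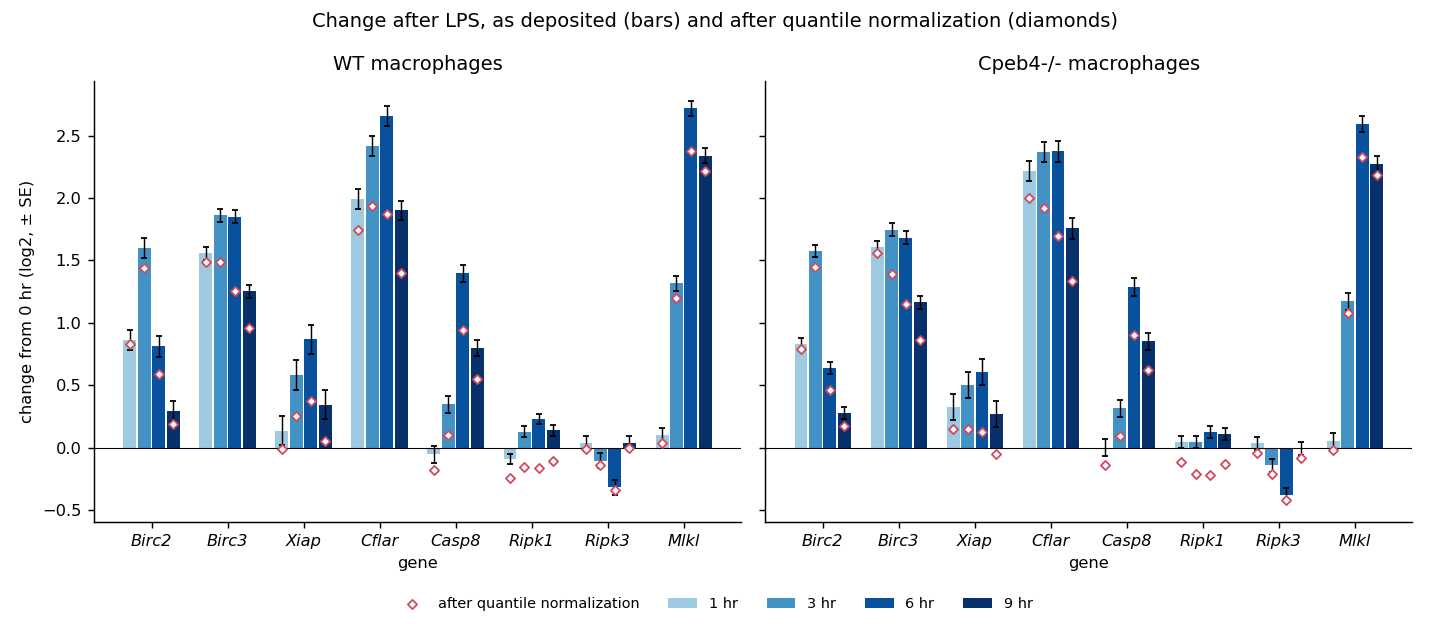
Change from 0 hr (log2 difference of group means, y axis, bars with SE) of the 8 genes (x axis) at 1, 3, 6 and 9 hr, in WT (left) and Cpeb4-/- (right) macrophages, 4 mice per group. Diamonds give the same change after quantile normalization. Cflar and Mlkl have the tallest bars, at 2.66 and 2.72 in WT at 6 hr, while the diamonds of Ripk1 are below 0 where its bars at 3, 6 and 9 hr are above 0, so its direction flips.

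The order of the 8 genes by level also changed. To compare levels between genes, 2 to the power of the rlog was divided by the exonic length of the gene in kb, over all annotated isoforms, which gives a scale of library-corrected counts per kb and understates genes with long rarely used exons. At 0 hr in WT the order was Casp8 (679 ± 46.1, SD, n = 4), Birc3 (499 ± 20.0), Mlkl (394 ± 27.6), Ripk3 (369 ± 16.5), Cflar (355 ± 19.1), Ripk1 (284 ± 8.52), Xiap (270 ± 31.5) and Birc2 (236 ± 5.10). Mlkl, Ripk3 and Cflar overlapped in these untreated libraries, as did Xiap with both Ripk1 and Birc2. At 6 hr Mlkl was first (2592 ± 139), followed by Cflar (2240 ± 121), with Birc3 (1794 ± 30.4) and Casp8 (1788 ± 78.0) overlapping behind them. Xiap (491 ± 26.1), Birc2 (414 ± 17.1) and Ripk1 (333 ± 11.7) came next, and Ripk3 was lowest (296 ± 19.8).

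Over the 40 libraries the 8 genes fell into distinct courses. Birc3 and Cflar had a Pearson r of 0.99, and Cflar was the gene most like Birc3 among 13102 compared. Casp8 and Mlkl had an r of 0.95, Birc2 and Birc3 of 0.78, and Birc2 and Casp8 of 0.00, while Ripk3 had an r below 0 with each of the other 7. The genes most like Birc2 were Tpbg, Myo1g and Cish (r 0.98, 0.97 and 0.97), and those most like Birc3 after Cflar were Socs3 and Zc3h12a (both 0.98). For Cflar they were Socs3, Tank and Birc3 (all 0.99), for Xiap Nup153, Atf2 and Med13 (0.98, 0.97 and 0.97), and for Casp8 Cd164, Eloa and G3bp2 (0.99 each). For Mlkl they were Isg20, Phf11a and Phf11b (all 1.00 when rounded). No gene was close to Ripk1 (highest r 0.87, Mtmr2, then Xdh and Ndst2) or to Ripk3 (highest r 0.88, Ttc12, then D330045A20Rik and Sept9). These values are descriptions over libraries that share 8 mice and 5 times and are set mainly by the course after LPS.

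The comparison of genotypes asks whether loss of CPEB4 altered these mRNAs. The 8 genes took the same general course in Cpeb4-/- macrophages, and the only calls were at 6 hr, where Birc2, Cflar and Ripk1 were lower than in WT. No gene passed at 0, 1, 3 or 9 hr in limma, where 1.31%, 1.91%, 3.68% and 7.91% of all genes tested did. At an unadjusted p under 0.05, 3, 4, 2 and 1 of the 8 genes passed at these times. The share of all genes at that unadjusted threshold is not given here, so these counts have no background and are not read further. At 6 hr 3 of the 8 passed, where 16.3% of 13039 genes tested did and 9.92% were called lower. Over all genes 835 were higher and 1294 lower, a split that became 1026 and 986 after quantile normalization. The median difference of the 8 genes at 6 hr was −0.12, and that of all genes tested −0.02.

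Cflar had the largest difference of the 8 genes at 6 hr as deposited. Its rlog was 14.79, 14.81, 14.69 and 14.88 in WT mice 25, 69, 87 and 88, and 14.45, 14.61, 14.66 and 14.39 in Cpeb4-/- mice 2, 3, 55 and 62. All 4 Cpeb4-/- values lay below all 4 WT values, with a gap between WT mouse 87 and Cpeb4-/- mouse 55 that was small beside the spread within each group. The difference was −0.26 (SE 0.06, 95% interval −0.40 to −0.12, limma adjusted p = 0.0173), that is 0.83 of the WT level, and it was −0.33 within batch 1 and −0.20 within batch 2. Without the library of Cpeb4-/- mouse 2 it was −0.23 and missed the threshold (limma adjusted p = 0.0591), and after quantile normalization it was −0.14 (adjusted p = 0.0923), smaller than that of Birc2. It also missed the threshold without the trend (adjusted p = 0.0536) and without the filter (adjusted p = 0.137).

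Birc2 was the most stable of the 3. Its rlog at 6 hr was 10.87, 10.97, 10.83 and 10.88 in WT mice 25, 69, 87 and 88 and 10.72, 10.67, 10.75 and 10.62 in Cpeb4-/- mice 2, 3, 55 and 62. The groups did not overlap, and the spread within each was about 0.06 (SD). The difference was −0.19 (SE 0.04, 95% interval −0.29 to −0.10, limma adjusted p = 0.0124), or 0.87 of the WT level, with −0.23 in batch 1 and −0.16 in batch 2. It passed when any 1 mouse was left out (−0.21 to −0.17) and after quantile normalization (−0.15, limma adjusted p = 0.0164), and missed the threshold only when no filter on low expression was used (adjusted p = 0.0617).

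Ripk1 was near the threshold. Its rlog at 6 hr was 11.42, 11.41, 11.42 and 11.52 in WT mice 25, 69, 87 and 88, and 11.34, 11.26, 11.37 and 11.20 in Cpeb4-/- mice 2, 3, 55 and 62. The groups did not overlap here or at 3 hr, where the WT values ranged from 11.29 to 11.43 and the Cpeb4-/- values from 11.16 to 11.25. The difference was −0.15 at 6 hr (SE 0.05, 95% interval −0.25 to −0.05, limma adjusted p = 0.0446), with −0.24 in batch 1 and −0.06 in batch 2, and −0.12 at 3 hr (adjusted p = 0.165). At 6 hr it passed in 1 of the 8 fits that left out a mouse, that without Cpeb4-/- mouse 55 (limma adjusted p = 0.0236), and in the other 7 the adjusted p was between 0.0667 and 0.114. After quantile normalization it was −0.11 (adjusted p = 0.0595).

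Mlkl had a difference of the same size that did not pass. Its rlog at 6 hr was 12.45, 12.60, 12.51 and 12.61 in WT mice 25, 69, 87 and 88 and 12.35, 12.41, 12.52 and 12.30 in Cpeb4-/- mice 2, 3, 55 and 62. The Cpeb4-/- library of mouse 55 lay within the WT range, and the difference of −0.15 had a limma adjusted p of 0.0835, which was 0.021 without that mouse (−0.19). At 6 hr WT and Cpeb4-/- did not overlap for 3 of the 8 genes, all lower, where 20.2% of all genes tested did not overlap and 12% lay lower. At 3 hr this was so for Ripk1 (13.6% of all genes, 6.58% lower) and at 0 hr for Ripk3, which was higher (10.5%, 5.51% higher), and for none of the 8 at 1 hr (15.7%) or 9 hr (16.9%).

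**Figure D3:**
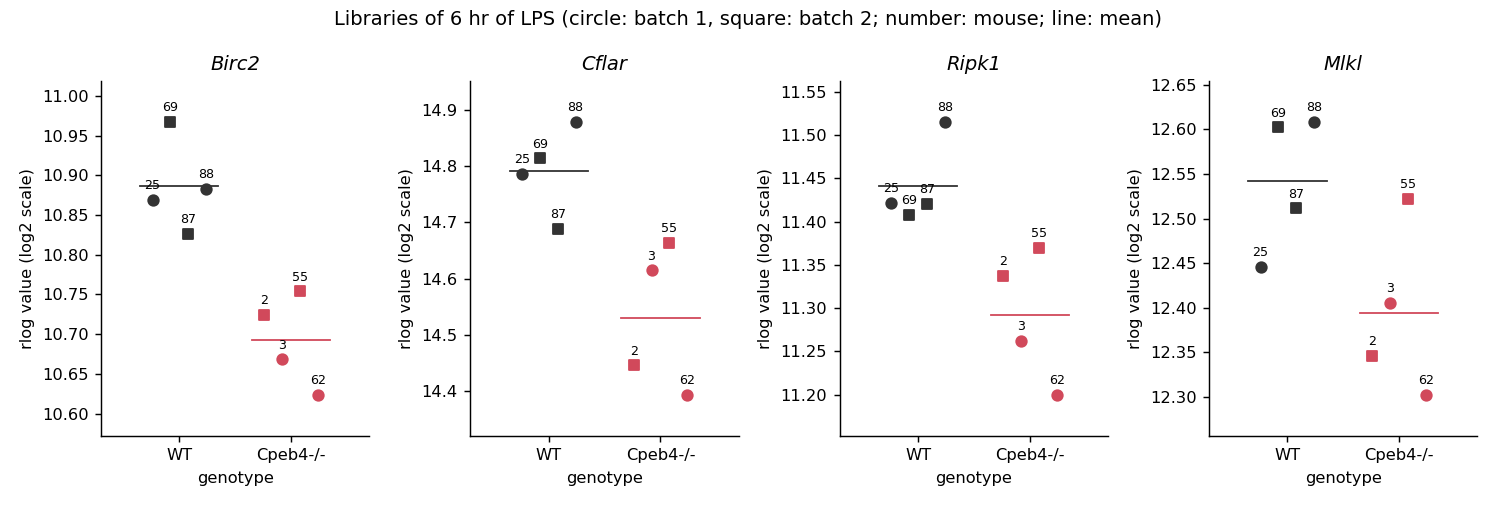
Rlog values (y axes do not start at 0) of the 8 libraries of 6 hr for Birc2, Cflar, Ripk1 and Mlkl, by genotype (x axis), with the mouse number at each point, circles for batch 1, squares for batch 2 and lines for the means. WT and Cpeb4-/- do not overlap for Birc2, Cflar and Ripk1, and for Mlkl the value of Cpeb4-/- mouse 55 is above that of WT mouse 25.

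Birc3, Xiap, Casp8 and Ripk3 were not called at 6 hr. Their differences were −0.05 (95% interval −0.14 to 0.04), −0.08 (−0.22 to 0.05), −0.06 (−0.20 to 0.08) and 0.11 (−0.03 to 0.25). Ripk3 was higher in Cpeb4-/- at each time, by 0.17, 0.17, 0.13, 0.11 and 0.13 at 0, 1, 3, 6 and 9 hr, with a limma adjusted p between 0.103 and 0.282. At 0 hr its groups did not overlap (9.65 to 9.81 in WT and 9.86 to 9.94 in Cpeb4-/-). The 5 times share their mice and are not independent of each other.

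At 1 hr Xiap was 0.37 higher in Cpeb4-/- (95% interval 0.04 to 0.70), Cflar 0.25 (0.02 to 0.48), Ripk3 0.17 and Birc3 0.17 (0.02 to 0.32), none of which passed (limma adjusted p between 0.103 and 0.123). For Xiap the WT values at 1 hr were 11.64, 11.77, 11.15 and 11.24 in mice 25, 69, 87 and 88, and the Cpeb4-/- values were 11.52, 11.92, 11.87 and 11.96 in mice 2, 3, 55 and 62. Hence 2 WT libraries were low, and Cpeb4-/- mouse 2 lay between the WT values. These 4 genes passed when the spread was estimated from all 40 libraries in 1 fit, both without and with the mouse as a replicate block (with the block, limma adjusted p = 0.0211 for Birc3, 0.0186 for Xiap, 0.0195 for Cflar and 0.0256 for Ripk3). In these fits 31.9% and 33% of all genes were called. Without the library of WT mouse 69, Xiap alone passed (0.47, limma adjusted p = 0.0461), where 18.6% of all genes did. At 9 hr, leaving out Cpeb4-/- mouse 2 gave calls for Xiap (0.23, limma adjusted p = 0.0112) and Casp8 (0.16, adjusted p = 0.0327), both higher in Cpeb4-/-, in a fit that called 35.2% of all genes.

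**Figure D4:**
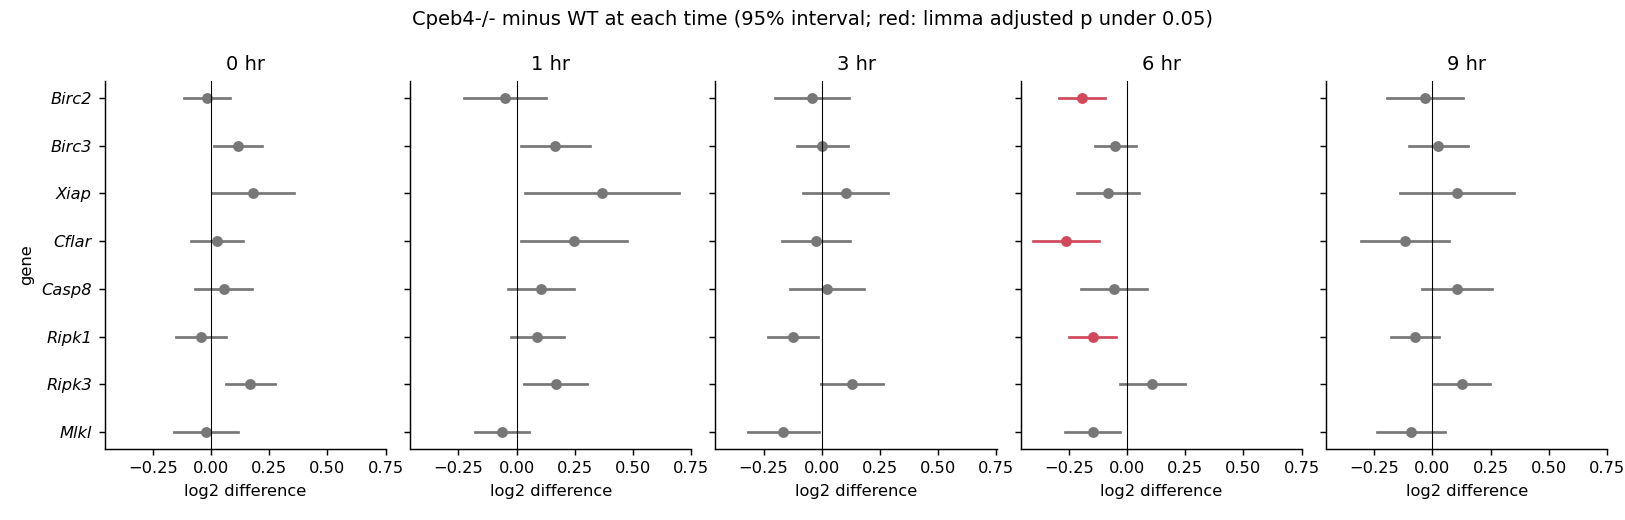
Cpeb4-/- minus WT (log2 difference, x axis) of the 8 genes (y axis) at 0, 1, 3, 6 and 9 hr, with 4 mice per genotype. Points are limma estimates and lines their 95% intervals, in red where the adjusted p is under 0.05. Cflar, Birc2 and Ripk1 are red at 6 hr only, and Ripk3 lies to the right of 0 at each time.

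Whether the response to LPS itself differed between genotypes was tested as an interaction over the 40 libraries. No gene of the 8 passed at 1, 3, 6 or 9 hr in limma, where 0.00763%, 0.206%, 2.94% and 1.76% of 13103 genes did. At an unadjusted p under 0.05 the counts were 1, 0, 2 and 0, again without the share of all genes at that threshold. The change from 0 to 6 hr was 2.66 in WT and 2.37 in Cpeb4-/- for Cflar, a difference of −0.29 (SE 0.12, limma adjusted p = 0.207). With the mouse as a replicate block, which uses that each animal was measured at both times, this difference passed (limma adjusted p = 0.0466). The share of all genes called with the block is not given here, so this call has no background and is not read further. For Birc3 the difference was −0.17 (adjusted p = 0.243) and for Birc2 −0.18 (adjusted p = 0.388). For Ripk1 it was −0.10 (adjusted p = 0.446). Xiap, which did not pass either, changed by 0.87 in WT and by 0.61 in Cpeb4-/- from 0 to 6 hr. Between the untreated groups Birc2 and Ripk1 differed by −0.02 and −0.04, and the interaction did not show that these values differ from those at 6 hr.

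Within Cpeb4-/- macrophages 4, 7, 8 and 6 of the 8 genes were called against 0 hr at 1, 3, 6 and 9 hr (43.8%, 71.3%, 79.1% and 72.8% of all genes tested). From 1 to 3, 3 to 6 and 6 to 9 hr the counts were 5, 4 and 7 (64%, 64.4% and 53.6%). Xiap, which was not called at 1 hr in WT, was higher at 1 hr in Cpeb4-/- (0.32, limma adjusted p = 0.0157, and 0.15 with no call after quantile normalization), and the difference between these changes, 0.19, did not pass (adjusted p = 0.9). Cflar was level from 3 to 6 hr in Cpeb4-/- (0.00, limma adjusted p = 0.961), with 2 mice up and 2 down, and was lower at 6 hr after quantile normalization (−0.22, adjusted p = 0.0151).

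Markers of some of the cell types moved with genotype as well. At 6 hr 4 of the 8 macrophage markers were called lower in Cpeb4-/- and none higher. Their summed level ranged from 19.24 to 19.32 (log2) in WT and from 18.92 to 19.14 in Cpeb4-/-. It was not particular to 6 hr, being lower in Cpeb4-/- without overlap at 0, 1, 3 and 9 hr too. Before LPS it was 18.98 to 19.29 in WT and 18.65 to 18.91 in Cpeb4-/-. Lyz2 had the highest mean rlog of these markers (18.24), ahead of Adgre1 (15.94), and weighs most in the sum. At 6 hr the summed level of the 3 stromal markers, which rests on Pdgfrb, ranged from 8.53 to 8.72 in WT and from 9.18 to 9.45 in Cpeb4-/-. Before LPS this sum was 5.46 to 5.63 in WT and 5.60 to 5.86 in Cpeb4-/-, so it rose with LPS in both genotypes. The 3 T cell markers, whose sum rests on Lck, ranged at 6 hr from 7.81 to 8.33 in WT and from 7.49 to 7.83 in Cpeb4-/-. Their sum also rose with LPS, from 4.93 to 5.23 in WT and 4.82 to 5.17 in Cpeb4-/- before LPS. At 6 hr the 3 dendritic cell markers summed to 6.67 to 7.05 in WT and 6.26 to 6.59 in Cpeb4-/-. The 3 mast cell markers, which rest on Kit, summed to 3.91 to 4.04 and 3.23 to 3.58, and both lists were without overlap. Genotypes overlapped at 6 hr for the 5 neutrophil markers (7.37 to 7.89 in WT and 7.41 to 7.71 in Cpeb4-/-). The same held for the 3 B cell markers (2.12 to 2.32 and 2.00 to 2.50). The part of any of these markers in the differences of Birc2, Cflar and Ripk1 was not tested.

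The genes around these 8 in the pathway were described from lists. Of 22 genes of the TNF receptor 1 complex and its ubiquitin editors, 8 were lower and 1 higher in Cpeb4-/- at 6 hr. The shares of all genes called, 16.3% (9.92% lower) at 6 hr and 7.91% at 9 hr, are the background of the list counts here. The lower ones included Rnf31, the catalytic subunit of the linear ubiquitin ligase LUBAC (−0.33, limma adjusted p = 0.000879), and Ikbke (−0.26, adjusted p = 0.00396), and the higher one was the adaptor Traf5 (0.25, adjusted p = 0.00708). At 9 hr 4 were lower, among them Otulin (−0.30, adjusted p = 0.0297) and Traf2 (−0.29, adjusted p = 0.0358), which brings the cIAP proteins to the receptor, and Traf5 was again higher (0.33, adjusted p = 0.0416).

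Of the 3 ligands tested, Tnf had lower values in Cpeb4-/- after 6 hr (−0.35, limma adjusted p = 0.00236), as it had after 9 hr (−0.46, adjusted p = 0.0243). Tnfsf10, encoding the death ligand TRAIL, was lower at 6 hr (−0.84, adjusted p = 0.000978), and Lta was lower at 9 hr (−1.14, adjusted p = 0.00793). Of the 8 necroptosis inputs and caspase-8 substrates, Tlr3 (−0.51, limma adjusted p = 0.00366), Tlr4 (−0.24, adjusted p = 0.0474) and Zbp1 (−0.21, adjusted p = 0.0102), which activates RIPK3, were lower at 6 hr, and Zbp1 also at 9 hr (−0.21, adjusted p = 0.0472). Of 10 death receptor and caspase genes only Bid, whose product caspase-8 cleaves, was lower at 6 hr (−0.35, adjusted p = 0.00192), and only Casp2 was called at 9 hr, as higher (0.36, adjusted p = 0.0229). The IAP antagonist Xaf1 was lower at 6 hr (−0.22, adjusted p = 0.00222), and no other IAP gene of 5 tested was called at 6 or 9 hr.

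**Figure D5:**
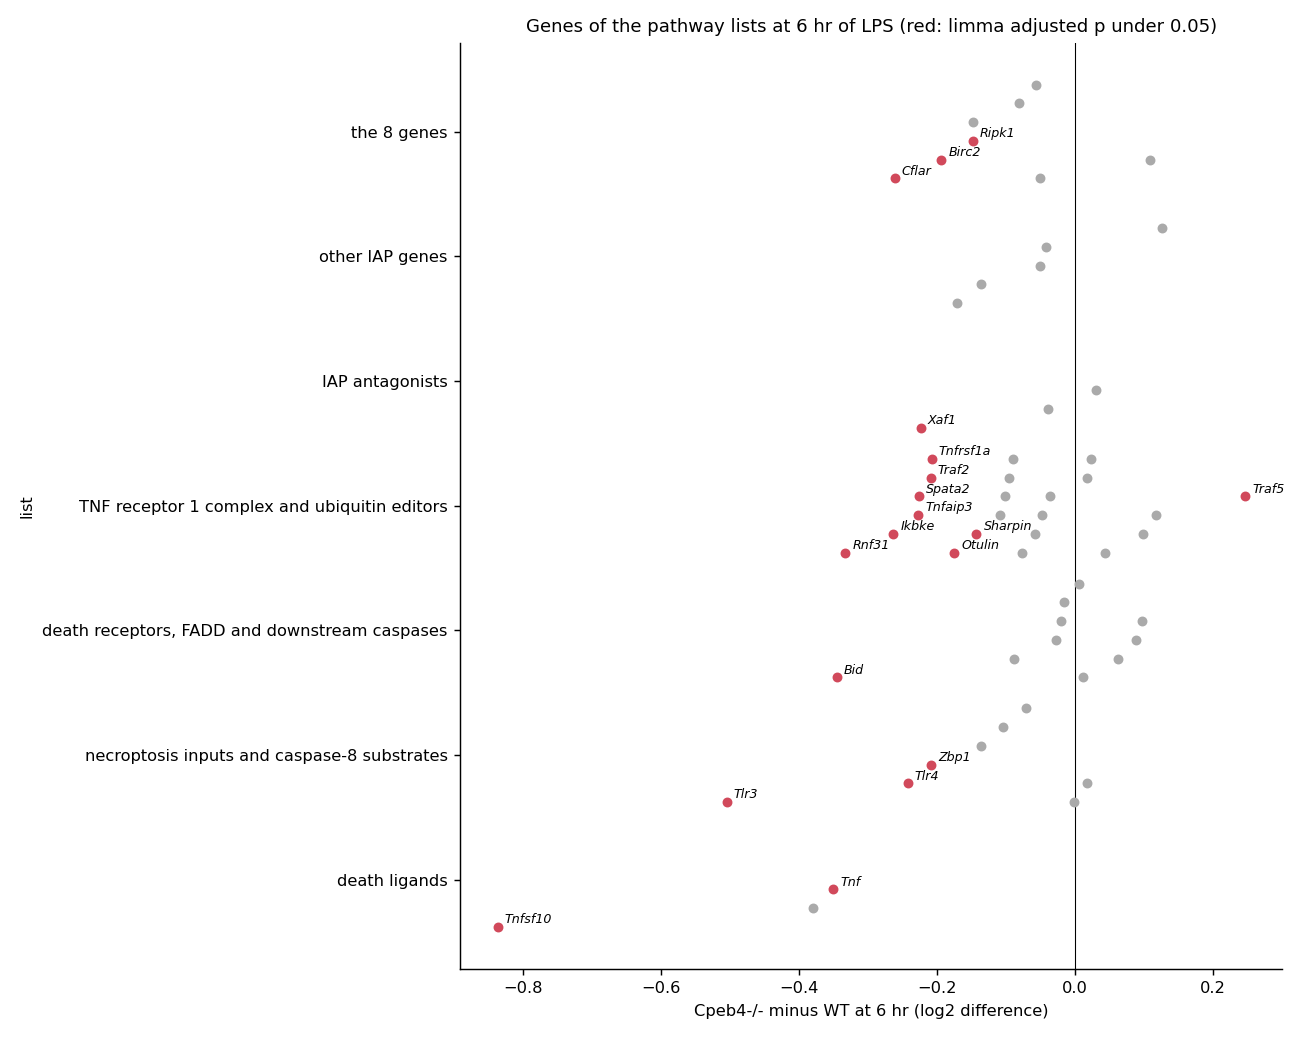
Cpeb4-/- minus WT at 6 hr (log2 difference, x axis) for the tested genes of each list (y axis, the height within a list has no meaning), 4 mice per genotype. Red, named points have a limma adjusted p under 0.05. Of the red points, Traf5 (0.25) is the one to the right of 0, and Tnfsf10 (−0.84) lies farthest to the left.

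In the WT response to LPS the pathway genes with the largest changes, as deposited, were as follows. Tnf rose 20.5-fold at 1 hr (log2 4.36, limma adjusted p = 1.3e-20) and Tnfaip3, encoding the ubiquitin editor A20, 11.1-fold at 1 hr (log2 3.47, adjusted p = 1.07e-18). At 6 hr Tnfsf10 was 18.1-fold higher (adjusted p = 1e-18), Lta 4.37-fold (adjusted p = 4.73e-11), Zbp1 9.94-fold (adjusted p = 2.1e-18), Tlr3 8.04-fold (adjusted p = 1.54e-19) and N4bp1, a caspase-8 substrate, 4.91-fold (adjusted p = 8.1e-18). Fas was 5.04-fold higher at 6 hr (limma adjusted p = 1.84e-17), whereas Casp9 was lower at 3 hr (−1.46, adjusted p = 8.69e-15). At 6 hr Tnip1 was 4.55-fold (limma adjusted p = 1.71e-18), Ikbke 3.96-fold (adjusted p = 1.11e-16) and Xaf1 4.92-fold higher (adjusted p = 2.39e-16), and Htra2 was lower (−0.60, adjusted p = 3.05e-09). Among the other IAP genes Birc6 (2.40-fold, adjusted p = 7.64e-10) and Naip2 (2.08-fold, adjusted p = 1.85e-12) were higher at 6 hr, and Birc5, encoding the mitotic protein survivin, was lower at 9 hr (−1.98, adjusted p = 3.61e-12).

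By list, 17 of 22 TNF receptor 1 complex genes were higher and 2 lower at 6 hr in WT, where 38.7% of all genes were higher and 39.2% lower. Of 8 necroptosis inputs and caspase-8 substrates 7 were higher and 0 lower. Of 10 death receptor and caspase genes 5 were higher and 4 lower, and of 5 other IAP genes 4 were higher and 1 lower. All 3 ligands tested were higher at 6 hr, and of 3 IAP antagonists tested 1 was higher and 1 lower. The median change at 6 hr was 0.68 for the TNF receptor 1 list, 1.31 for the necroptosis list, 0.17 for the death receptor list and 2.98 for the ligands, against −0.02 for all genes tested. These counts and medians are as deposited, and all genes are not matched to the lists by level. Quantile normalization moved the 6 hr change of genes averaging 10 or more by −0.37 in WT, which is larger than the 0.17 of the death receptor list.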

How the data were processed

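The authors aligned reads to mm10 with STAR 2.3.0e, counted them per gene with featureCounts and deposited the regularized log (rlog) values of DESeq2, which are on a log2 scale, corrected for library size and shrunken at low counts. All 40 value columns were used (0 left unused), and groups, mice and batches were taken from the sample labels. Rlog values keep no read counts, so library depths are not used here and no interval based on reads is given. Genotypes were compared at each time (8 libraries), times within a genotype (20 libraries) and the interaction over 40 libraries with limma 3.58.1 (lmFit, eBayes with trend, two-sided) in R 4.3.3. Genes entered a fit if their rlog averaged log2 of 5 or more over its libraries. Benjamini-Hochberg adjustment ran over every gene tested, and an adjusted p under 0.05 was a call. Folds are 2 to the power of the difference and understate changes of low genes. The pairing of libraries by mouse comes from the labels, since each animal gave all 5 times. Deviations from the group mean had a median correlation of 0.29 between libraries of one animal (68 of 80 pairs over 0.1) and of −0.09 between animals. The replicate block used the mouse as a random (genotype, statmod 1.5.0) or fixed effect. In the genotype fits at each time, p-values measure the spread between mice of these cages and batches. The reported fits over times and of the interaction had no mouse term. They take libraries of one animal as independent, so their p-values mix the spread between mice with that within a mouse. Tested on simulated data, the 6 hr genotype fit recovered 75 of 100 changes of 0.5 and 97 of 100 of 1 with 8 false calls among 13096 genes. These changes are larger than the 6 hr genotype differences of the 8 genes, and the simulated spread had no mouse or batch part. Recovery of differences as small as those reported was therefore not measured. Alternatives were no filter, a stricter filter (rlog averaging 5 or more), untrended or robust eBayes, quantile normalization, batch as a covariate, a fit over all 40 libraries, the replicate block and leaving out each mouse. Positions and 3′-UTRs are from GENCODE M21, promoters from RefSeq. From each pathway list, the genes named are up to 3 called genes with the largest difference at 6 hr, at 9 hr, and in the WT course, and for each of the 8 genes the 3 with the highest correlation. One gene that this rule names is not reported here. Protein sequences were not used here. The members, gene lists and tests were chosen with earlier results of these data known. Values were handled with pandas 2.3.3 and numpy 2.4.6 in Python 3.11.15, and plots with matplotlib 3.10.9.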

Additional observations from a re-analysis of the deposited data

Results flagged for a closer look

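In 7 of the 80 groups of 4 mice (8 genes in 10 groups), 1 library lay far from the other 3, with a gap to its nearest neighbour, as a share of the group's range, above Dixon's critical value, where chance gives about 1 in 20 groups, that is about 4. This share was 0.88 for Birc3 in WT at 9 hr (mouse 88, lowest), 0.907 for Xiap in WT at 6 hr (mouse 87, lowest) and 0.889 for Casp8 in WT at 3 hr (mouse 88, highest). It was 0.92 for Casp8 in Cpeb4-/- at 1 hr (mouse 2, lowest). For Ripk1 it was 0.872 in WT at 6 hr (mouse 88, highest), 0.923 in Cpeb4-/- at 0 hr (mouse 55, lowest) and 0.945 in Cpeb4-/- at 9 hr (mouse 2, lowest).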

How the results depend on the processing

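Between genotypes, 0 of the 8 genes were called at 0 and 3 hr under each of 16 alternatives. Of all genes, 0.158% to 3.16% were called at 0 hr and 0.331% to 19.8% at 3 hr under these. At 1 hr, where none was called, 4 were called with all 40 libraries in one fit, 4 with the mouse as a replicate block in that fit, and 0 to 1 when a mouse was left out (1 without WT mouse 69). The shares of all genes called in these fits were 31.9%, 33% and 0.305% to 18.6%. At 6 hr, where 3 were called, 0 were called without a filter, 1 without the trend, 1 after quantile normalization, and 1 to 4 when a mouse was left out (1 without Cpeb4-/- mouse 2). The matching shares of all genes were 3.19%, 11.2%, 15.4% and 10.3% to 17.9%, against 16.3% as reported. With batch as a covariate Ripk1 missed the threshold (limma adjusted p = 0.0637). At 9 hr, 0 to 2 were called when a mouse was left out (2 without Cpeb4-/- mouse 2), where 2.98% to 35.2% of all genes were (35.2% without that mouse). In the interaction at 6 hr the replicate block gave 1 call, Cflar, and the share of all genes it called is not given here. Elsewhere the block added Ripk1 from 6 to 9 hr in WT (−0.09, adjusted p = 0.0457) and Cflar from 1 to 3 hr in Cpeb4-/- (0.15, adjusted p = 0.0345), and it changed no other call of the 8 genes.

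In WT, quantile normalization gave 5 calls for 1 against 0 hr (3 as deposited) and 3 for 3 against 1 hr (8 as deposited), and leaving out a mouse gave 4 to 6 for 6 against 3 hr (7 with all mice, 4 without WT mouse 25). In Cpeb4-/- leaving out a mouse gave 3 to 5 for 3 against 1 hr (5 with all mice, 3 without mouse 2 and 3 without mouse 55). The shares of all genes for these steps as deposited are given above, and those under these alternatives are not given here. Quantile normalization reversed Ripk1 in WT at 3 hr (−0.15), 6 hr (−0.16) and 9 hr (−0.11) against 0 hr and at 6 against 3 hr (−0.0084), and in Cpeb4-/- at 1 hr (−0.11), 3 hr (−0.21), 6 hr (−0.22) and 9 hr (−0.13). It also reversed Birc3 for 3 against 1 hr in WT (−0.00047) and Cpeb4-/- (−0.16), Cflar for 6 against 3 hr in WT (−0.062) and Cpeb4-/- (−0.22), and Xiap for 9 against 0 hr in Cpeb4-/- (−0.048). The cause was not tested. Of the other values of single genes, 62 changed sign without a call under either setting, 70 lost a call, 24 gained one, and 2295 kept their sign and side of the threshold.

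Over all genes, the alternatives gave 43 to 414 calls between genotypes at 0 hr (171 as reported), 40 to 4323 at 1 hr (251), 76 to 2584 at 3 hr (481), 868 to 2331 at 6 hr (2129) and 369 to 4575 at 9 hr (1029). For the interaction they gave 0 to 8 at 1 hr (1 as reported), 5 to 72 at 3 hr (27), 84 to 1032 at 6 hr (385) and 89 to 654 at 9 hr (231). The number of mice, 4 per genotype, limits the precision, with a standard error of 0.04 to 0.07 for the 8 genes at 6 hr.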
